A study of Drosophila melanogaster with 6 samples.

Results

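Follicle cells expressing human AKT1 with the Q79K-W80R substitutions were set directly against follicle cells expressing the T5 duplication, to find the fly genes whose RNA differed between these forms of the kinase. The comparison used 6 of the 18 libraries of the series, 3 of Q79K-W80R and 3 of T5, and all genes whose normalized count reached 10 in 3 or more of these libraries. Of 17493 genes in the deposited matrix, 9040 met that rule and were tested. In both lines a human AKT1 transgene at the same genomic landing site was switched on by traffic jam-GAL4 (tj-GAL4), a driver of the ovary's somatic cells, and the fly's own Akt gene was left in place. T5 carries an in-frame tandem duplication in the pleckstrin homology domain of AKT1. Q79K-W80R carries no duplication but substitutions of 2 neighboring residues of the same domain. The other 12 libraries, also 3 per group, were T1 and T15 (AKT1 with other duplications), WT (unmutated AKT1) and LP (tj-GAL4 with the landing site and no transgene). Each form is represented by 1 transgenic line, each library by follicle cells pooled from many ovaries of 1 cross, and the age of the flies is not given in the sources used here.

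AKT is the central kinase of insulin and PI3K signaling. Its pleckstrin homology domain binds phosphoinositides made by PI3K at the plasma membrane, where AKT is phosphorylated and becomes active, and mutations in that domain can hold the kinase at the membrane. Active AKT keeps the transcription factor FOXO out of the nucleus and releases TOR from inhibition, so cells grow, take up nutrients and lower stress defenses. Follicle cells form the epithelium around the germ line of the egg chamber. They shape the axes of the egg, make ecdysone, secrete yolk proteins, and later lay down the vitelline membrane and the chorion.

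The normalized counts of a library summed to between 23688734 and 24266118 in Q79K-W80R and between 23572559 and 25256907 in T5. The most frequent lowest value, which is about what 1 read was worth, was 0.785 to 0.855 in Q79K-W80R and 0.825 to 0.995 in T5, so a normalized count of 10 rests on few reads. Libraries of Q79K-W80R resembled each other more closely than those of T5: the median within-group SD of log2 values was 0.074 and 0.14. T5 library 2 lay farthest from the other T5 libraries in 3734 of 9040 genes. Follicle cell markers were abundant in all 6 libraries, among them Vm26Aa, a vitelline membrane protein (means of 307188 in Q79K-W80R and 487344 in T5), and the follicle cell transcription factor traffic jam (tj). The human transgene is not among the genes measured, so neither mutation could be checked.

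A gene was called a DEG at an adjusted p under 0.05 (limma, Benjamini-Hochberg over all 9040 genes) and a Log2FC, Q79K-W80R minus T5, of at least 0.585 in either direction. There were 236 DEGs, 2.61% of the genes tested, of which 150 were higher in Q79K-W80R (1.66%) and 86 lower (0.951%). Without the limit on size, 413 genes passed (4.57%), 219 higher and 194 lower. The groups did not overlap in any of the 236 DEGs, as was true of 32.9% of all genes. The Log2FC of all genes had a median of 0.010, which the scaling of the deposited values sets near 0, and of 0.052 with equal totals without mitochondrial and ribosomal RNA genes. The count depended on the Q79K-W80R libraries: without library 1, 2 or 3 of that line, 58, 41 and 53 DEGs were left, and without T5 library 1, 2 or 3 there were 395, 325 and 182. 39 of the 236 genes stayed at an adjusted p under 0.05 whichever library was left out, 17 of them higher and 22 lower. A fit that took its spread from all 18 libraries called 64 DEGs, 62 of them among the 236.

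**Figure D1:**
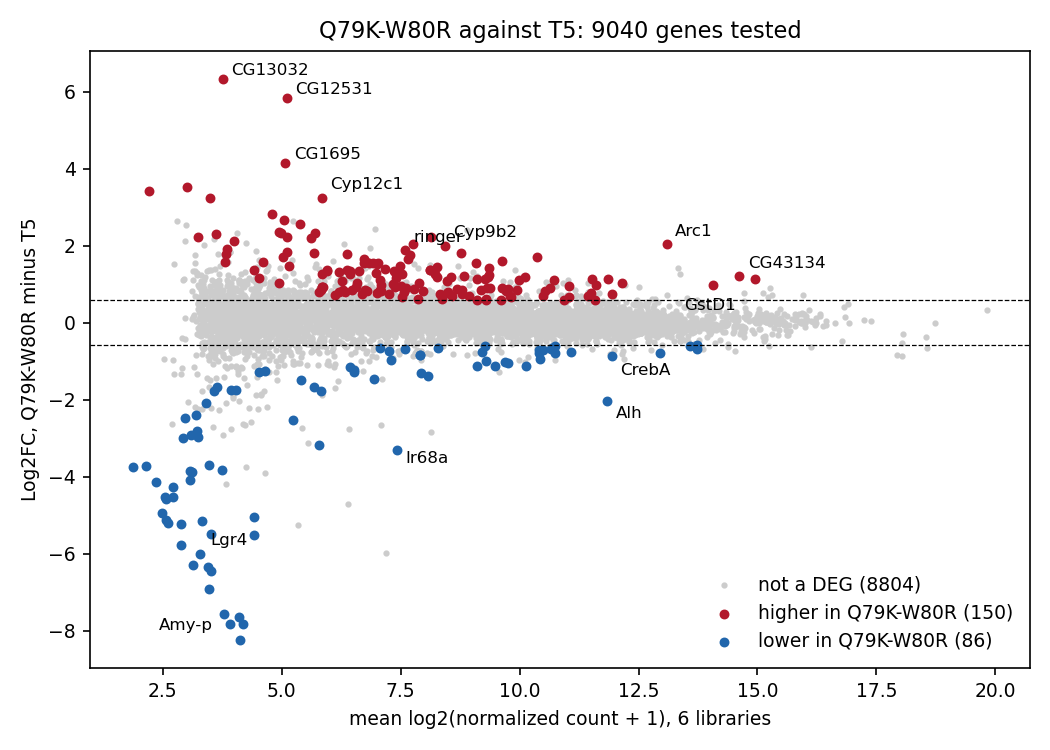
Mean log2(normalized count + 1) over the 6 libraries (x axis) against Log2FC, Q79K-W80R minus T5 (y axis), for the 9040 genes tested, with dashed lines at the Log2FC threshold of 0.585. The 150 genes higher in Q79K-W80R (red) include abundant ones such as Arc1 and GstD1, and the lowest points among the 86 lower genes (blue) are digestive enzymes such as Amy-p.

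Set among all 18 libraries, Q79K-W80R stood apart in many of the higher DEGs and T5 in none. In 70 of the 150 higher DEGs all 3 Q79K-W80R libraries lay outside the range of the 15 other libraries, and in 0 of them did all 3 T5 libraries do so. Of the 86 lower DEGs, Q79K-W80R lay outside that range in 8 and T5 in 10, Alh being counted in both. Over all 9040 genes the shares were 3.46% for Q79K-W80R and 0.431% for T5. These counts describe genes chosen for their difference between Q79K-W80R and T5. In the remaining 149 DEGs neither line lay wholly outside the other libraries.

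The largest rises by Log2FC came from genes that were close to silent in T5. CG13032 had normalized counts of 121, 113 and 129 in Q79K-W80R libraries, against 0.876, 0 and 0.828 in T5 libraries, with 45.0, 34.3 and 71.2 in T1 libraries and means of at most 0.736 in T15, WT and LP. CG12531, a predicted amino acid transporter, had 296, 266 and 223 in Q79K-W80R libraries, against 0.875, 8.92 and 4.14 in T5 libraries, with 7.21, 33.3 and 7.52 in T1 libraries and means of no more than 4.07 in T15, WT and LP. Both genes rose (adjusted p = 0.00139 for CG13032, and Log2FC 5.84, adjusted p = 0.00588 for CG12531). All T1 libraries lay between the 2 lines for CG13032, and T1 library 2 alone did so for CG12531. Where a group is listed at or near 0 the fold is often left out. Any fold given there, as for CG12531, rests on few reads. CG1695 was a different case: its counts were 104, 151 and 178 in Q79K-W80R libraries, against 5.25, 9.91 and 6.62 in T5 libraries (Log2FC 4.14, standard error 0.30, adjusted p = 0.00241), but WT averaged 116 and T1 132, so the low groups for this gene were T5, LP (12.2) and T15 (30.6). Nckx30C, which encodes a potassium-dependent sodium/calcium exchanger, had 31.0, 37.8 and 32.5 in Q79K-W80R, against 2.96, 2.97 and 2.10 in T5 (adjusted p = 0.00363). CG17707 had 76.5, 74.8 and 66.2 in Q79K-W80R, against 12.3, 8.92 and 7.45 in T5 (Log2FC 2.82, adjusted p = 0.00329), and no other line averaged above 8.59. Others with rises over 4-fold and low levels in T5 were CG14695 (2.67), CG17127 (2.35), CG8641 (2.32), the acyl-CoA synthetase gene Acsx3 (2.24) and asRNA:CR44020 (2.34), with the Log2FC in brackets. Whether counting used the strand is not stated, so reads of that antisense RNA and of a gene it overlaps cannot be told apart. Without Q79K-W80R library 2, the adjusted p was 0.0502 for CG12531 and 0.0537 for Nckx30C, and without library 1, 2 or 3 of Q79K-W80R CG14695, CG17127 and Acsx3 did not pass, at 0.0576 for Acsx3 without library 1 and 0.138 for CG14695 without library 2. CG13032, CG1695, CG17707 and CG8641 passed whichever library was left out.

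The most abundant gene with a large rise was Arc1, whose product derives from a retrotransposon Gag protein, forms capsids that carry RNA, and is known from neurons and muscle. Arc1 had 19331, 18619 and 15420.1 in Q79K-W80R libraries, against 5681, 3193 and 4341 in T5 libraries (Log2FC 2.05, standard error 0.21, adjusted p = 0.00603), and the 12 other libraries averaged between 2360.3 in WT and 2821 in T1. The lowest Q79K-W80R library was thus more than 2-fold above the highest T5 library, and the T5 mean of 4405 was itself above those of the 4 other groups. Its neighbor Arc2, a related Gag-derived gene, had 298, 258 and 228 in Q79K-W80R, against 124, 98.1 and 87.9 in T5 (Log2FC 1.34, adjusted p = 0.0117). Without Q79K-W80R library 2 the adjusted p was 0.0529 for Arc1, and without library 1, 2 or 3 it was 0.0672, 0.0774 and 0.0512 for Arc2. ringer, which encodes a microtubule-stabilizing protein, had the smallest adjusted p among the rises: 361, 388 and 358 in Q79K-W80R libraries, against 106, 95.2 and 95.8 in T5 libraries (Log2FC 1.89, standard error 0.09, adjusted p = 0.00114). The range with 1 library left out was 0.00127 to 0.0196, so ringer was called in each of these fits, as were CG32444 (Log2FC 2.04, adjusted p = 0.00232) and CG42808 (Log2FC 1.64, adjusted p = 0.00363). Smaller but tight rises were those of sosie, a transmembrane protein needed for the integrity of the follicle epithelium (Log2FC 0.68, adjusted p = 0.00232), the virus-induced gene vir-1 (Log2FC 0.88, adjusted p = 0.00241), CG32022 (Log2FC 0.84, adjusted p = 0.00329), and pastrel (pst), known from resistance to picorna-like viruses (Log2FC 1.15, adjusted p = 0.00585). All 4 passed with any 1 library left out. T1 was split for 2 of these genes: sosie had 1864, 1839 and 1772 in Q79K-W80R libraries and 8706, 7169 and 1009.5 in T1 libraries, and CG32022 had 1201, 1090.0 and 1084 in Q79K-W80R libraries and 1246, 1547 and 583 in T1 libraries, so that T1 library 3 lay below all T5 libraries in both.

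**Figure D2:**
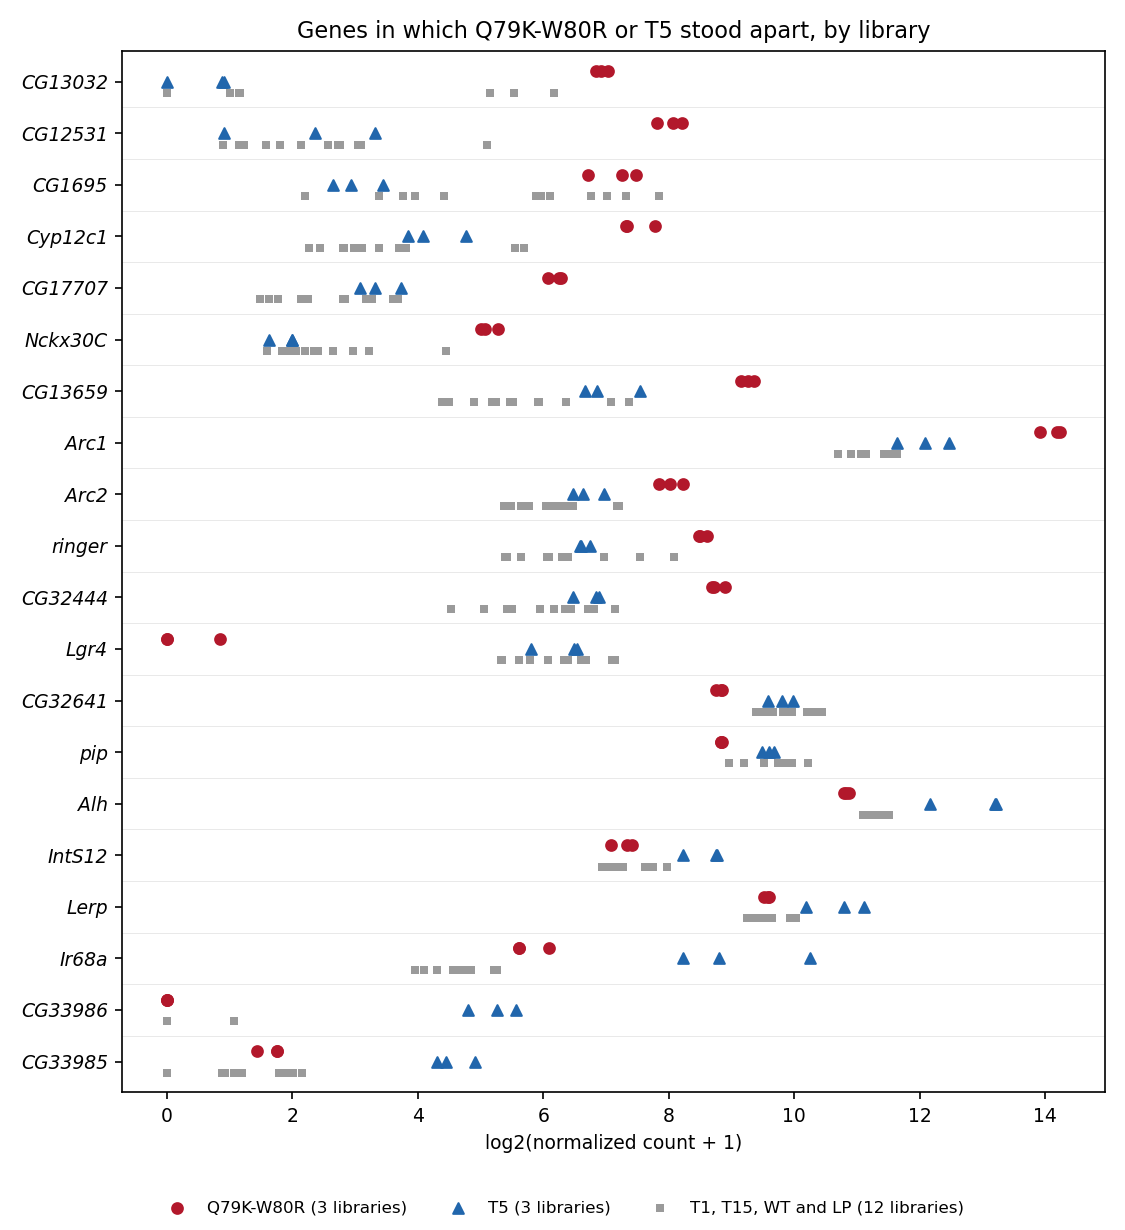
Log2(normalized count + 1) of 20 genes in each library, with Q79K-W80R as red circles, T5 as blue triangles and the 12 libraries of T1, T15, WT and LP as grey squares. For CG12531, CG17707 and Arc1 the red circles lie to the right of all other libraries, for Lgr4 to the left of them, and for CG33986 and Ir68a it is the blue triangles that lie apart.

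Families of detoxification enzymes held many of the higher genes. Glutathione transferases, which couple glutathione to reactive compounds, were represented by 31 tested Gst genes. Of these, 12 were higher in Q79K-W80R at an adjusted p under 0.05, where 2.42% of all genes were, and none was lower, against 2.15% of all genes. Their median Log2FC was 0.74, against 0.010 over all genes, and 28 of the 31 were positive. The summed level of all 35 Gst genes was 56682, 57958 and 60010.1 in Q79K-W80R libraries, against 39464, 30801 and 39480.4 in T5 libraries. The sum was 41955, 43594 and 27059 in T1 libraries, and LP libraries ranged from 23652 to 30534. GstD1, the most abundant member and a common readout of the oxidative stress factor CncC (Nrf2), had 23934, 24079 and 24938 in Q79K-W80R libraries, against 13658, 9633 and 13844 in T5 libraries (Log2FC 0.99, standard error 0.14, adjusted p = 0.0176). The neighboring delta-class genes GstD3 (Log2FC 0.95, adjusted p = 0.00745), GstD4 (Log2FC 1.35, adjusted p = 0.0449), GstD9 (Log2FC 0.84, adjusted p = 0.0147) and GstD10 (Log2FC 1.26, adjusted p = 0.0253) also rose. Of the epsilon class, GstE7 (Log2FC 1.3, adjusted p = 0.0286), GstE6 (Log2FC 1.10, adjusted p = 0.0286), GstE5 (Log2FC 0.85, adjusted p = 0.0423) and GstE1 (Log2FC 0.70, adjusted p = 0.0449) were DEGs, and in the theta class GstT4 (Log2FC 1.11, adjusted p = 0.041). GstD2 did not pass (Log2FC 0.99, adjusted p = 0.287), and GstS1, which is also a muscle protein, had a Log2FC of -0.27 (adjusted p = 0.0959).

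Of the 14 tested genes of redox defense outside the Gst family, 0 passed the adjusted test (limma). At an unadjusted p under 0.05, 5 were higher and 1 lower (12% and 12.5% of all genes), and the median Log2FC was 0.11. The summed level of all 15 listed genes was 66740, 66365 and 64822 in Q79K-W80R libraries, against 59079, 58136 and 57846 in T5 libraries. No library of another line was above 59658 (T1). cnc, which encodes CncC, had a Log2FC of 0.17 (adjusted p = 0.197) and its inhibitor Keap1 one of 0.066 (adjusted p = 0.743). The superoxide dismutase genes Sod1 and Sod2 had 0.082 and -0.033, catalase (Cat) 0.14, and both subunits of glutamate-cysteine ligase, which limits glutathione synthesis, -0.08 (Gclc) and 0.047 (Gclm), none of them past the test. The number of Gst genes called was 0 to 1 (GstD3) without 1 of the Q79K-W80R libraries and 5 to 13 without 1 of the T5 libraries, while the median of the family stayed between 0.55 and 0.92. Gst genes of a cluster are similar in sequence, and how RSEM divided reads between them was not tested.

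Cytochrome P450 enzymes, which oxidize hormones, fatty acids and foreign compounds, showed the same direction. Among 44 tested Cyp genes, 8 were higher and 0 lower at an adjusted p under 0.05, against 2.42% and 2.15% of all genes. Of the 44, 35 were positive, as were 52.0% of all genes, and the median Log2FC was 0.40. Cyp12c1, a mitochondrial P450, had 219, 158 and 161 in Q79K-W80R libraries, against 26.3, 15.9 and 13.3 in T5 libraries (Log2FC 3.25, standard error 0.28, adjusted p = 0.00363), and the 4 other lines averaged between 6.0 and 36.0. Cyp9b2 had 672, 716 and 678 in Q79K-W80R libraries, against 252, 119.9 and 167 in T5 libraries (Log2FC 2.00, adjusted p = 0.0121). Cyp12a5 (Log2FC 1.55, adjusted p = 0.0456), Cyp9f2 (Log2FC 1.23, adjusted p = 0.0261), Cyp6a23 (Log2FC 1.2, adjusted p = 0.0235), Cyp4e2 (Log2FC 0.86, adjusted p = 0.0237), Cyp6a9 (Log2FC 0.77, adjusted p = 0.0327) and Cyp6a13 (Log2FC 0.62, adjusted p = 0.0404) made up the rest. The 2 members with the most negative values, Cyp6g1 (Log2FC -1.84, adjusted p = 0.0941) and Cyp6a8 (Log2FC -1.44, adjusted p = 0.188), did not pass. Without any 1 of the Q79K-W80R libraries, 1 Cyp gene, Cyp12c1, stayed past the test, and the family median stayed between 0.32 and 0.50 over the fits that left out 1 library.

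Conjugating enzymes of later steps were also represented. Of 18 tested Ugt genes, which attach sugars to small molecules, Ugt37D1 (Log2FC 1.34, adjusted p = 0.0306) and Ugt35A1 (Log2FC 0.76, adjusted p = 0.0147) rose (2.42% of all genes were higher), 14 were positive, and the median Log2FC was 0.36. The ecdysteroid kinase-like genes, a family of predicted small-molecule kinases that was listed after its values had been seen, had 33 members tested, of which 8 were higher and 1 lower (2.42% and 2.15% of all genes), with a median of 0.28. CG13659 had 653, 569.7 and 611 in Q79K-W80R libraries, against 185, 100.1 and 115 in T5 libraries (Log2FC 2.24, standard error 0.22, adjusted p = 0.00588), with 0.0018 to 0.0474 as the range of the adjusted p with 1 library left out. CG11893 (Log2FC 2.56, adjusted p = 0.00588), CG6908 (Log2FC 1.7, adjusted p = 0.0375), CG31288 (Log2FC 1.65, adjusted p = 0.0343), CG31370 (Log2FC 1.26, adjusted p = 0.0165), CG32195 (Log2FC 1.10, adjusted p = 0.00722) and JhI-26 (Log2FC 0.82, adjusted p = 0.0442) rose too. CG31288, CG13659 and CG31370 follow one another among the tested genes of chromosome arm 3R. CHKov1, in which natural alleles are known to alter resistance to virus and insecticide, had 183, 164 and 151 in Q79K-W80R libraries, against 371, 534 and 401 in T5 libraries (Log2FC -1.37, standard error 0.15, adjusted p = 0.00915). Its means of 468 in T1 and 606 in T15 were close to T5, and those of 63.2 in WT and 48.4 in LP were below Q79K-W80R. In both families the number of higher genes dropped when 1 Q79K-W80R library was left out, to 0 for Ugt and to between 1 and 3 for the ecdysteroid kinase-like genes.

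**Figure D3:**
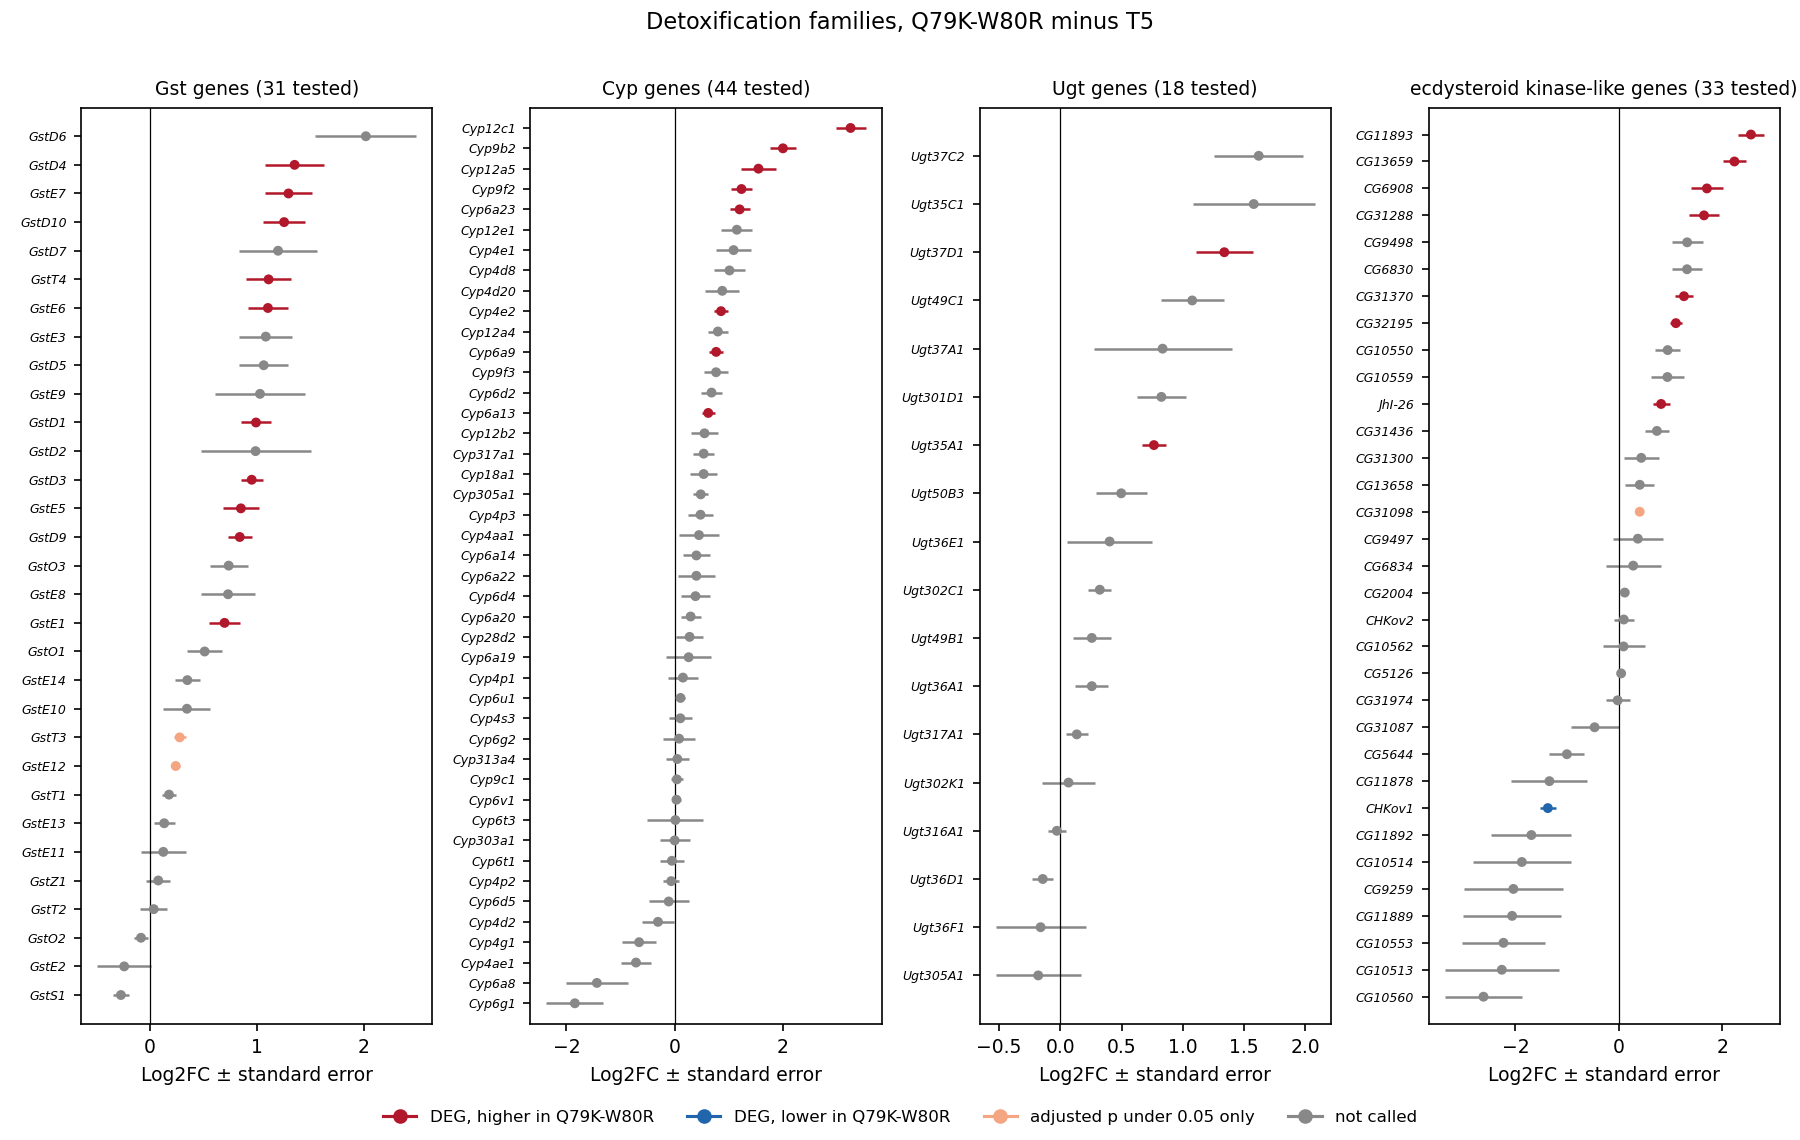
Log2FC, Q79K-W80R minus T5, with its standard error for every tested gene of 4 detoxification families, ordered by value. Points lie mostly to the right of 0 in the 31 Gst, 44 Cyp and 18 Ugt genes, and on both sides of it in the 33 ecdysteroid kinase-like genes.

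Other higher DEGs of metabolism included transporters and an oxidase. The aldehyde oxidase gene AOX1 had 1866, 1608 and 1564 in Q79K-W80R, against 917, 645 and 678 in T5 (Log2FC 1.18, adjusted p = 0.0117), the zinc importer gene Zip89B 912, 935 and 917 in Q79K-W80R, against 371, 357 and 238 in T5 (Log2FC 1.54, adjusted p = 0.00815), and the zinc exporter gene ZnT77C a Log2FC of 0.86 (adjusted p = 0.0375). AOX1, Zip89B and ZnT77C each stood above all 15 other libraries. Gapdh2, of glycolysis, was higher by a Log2FC of 0.52 (adjusted p = 0.013), under the limit for a DEG. Of 31 tested genes of glycolysis and sugar transport, 1 was higher and 1 lower at an adjusted p under 0.05. The shares of all genes were 2.42% and 2.15%, and the median Log2FC of the list was 0.11. The lower gene was the maltase gene Mal-A1, given below with the midgut enzymes. Of the 31 values 25 were positive, as were 52.0% of all genes. The listed genes summed to 117369 to 119119 in Q79K-W80R and 104112 to 110622 in T5, and no library of another line was above 113682 (T15). CG43134 and CG15721 were among the most abundant DEGs of all. CG43134 had 40109, 41235 and 34087 in Q79K-W80R libraries, against 19632, 19027 and 12061 in T5 libraries (Log2FC 1.22, adjusted p = 0.0261), and CG15721 had 53309.5, 48698 and 40046 in Q79K-W80R libraries, against 29188, 18849.7 and 17679 in T5 libraries (Log2FC 1.14, adjusted p = 0.0343). Without any 1 Q79K-W80R library neither passed, the largest adjusted p being 0.127 and 0.156.

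Of 23 tested immune genes, 3 were higher and 1 lower at an adjusted p under 0.05, against 2.42% and 2.15% of all genes, and the median was a Log2FC of 0.27. Drosocin (Dro), an antimicrobial peptide of the IMD pathway, had 96.1, 182 and 206 in Q79K-W80R libraries, against 46.4, 41.8 and 43.5 in T5 libraries (Log2FC 1.78, adjusted p = 0.0261), and cecropin A1 (CecA1) had 22.3, 17.3 and 19.0 in Q79K-W80R, against 1.78, 2.97 and 6.66 in T5 (Log2FC 2.22, adjusted p = 0.044). T1 libraries had 35.1, 29.3 and 47.1 for CecA1, above all Q79K-W80R libraries. The complement-like gene Tep4 was higher by a Log2FC of 0.32 (adjusted p = 0.0317), under the limit for a DEG. Outside that list, pirk, an inhibitor of IMD signaling, had 287, 288 and 316 in Q79K-W80R, against 153, 76.7 and 101 in T5 (Log2FC 1.48, adjusted p = 0.0261), and the serine protease modSP, which acts upstream of Toll, had 248, 228 and 208 in Q79K-W80R, against 118, 113 and 107 in T5 (Log2FC 1.01, adjusted p = 0.00722). The recognition protein gene GNBP1 rose as well (Log2FC 0.76, adjusted p = 0.0375). Drsl5, a drosomycin-like peptide, had 0.772, 0 and 0 in Q79K-W80R libraries, against 14.2, 19.8 and 29.9 in T5 libraries, and was the member that fell (adjusted p = 0.0106), while LP averaged 64.0. CecA1 met the filter only through the Q79K-W80R libraries and Drsl5 only through the T5 libraries, so the direction of each was fixed. The transcription factors of the pathways, Rel, dl and Dif, had Log2FC of 0.34, 0.38 and 0.38 with adjusted p of 0.098, 0.35 and 0.323. Without any 1 Q79K-W80R library pirk, CecA1, GNBP1 and Tep4 were not past the test, with largest adjusted p of 0.127, 0.175, 0.171 and 0.144. Dro passed without library 1 of Q79K-W80R, whose value was the lowest of that line, and not without library 2 or 3 (0.129 and 0.111). The adjusted p reached 0.0664 for Drsl5 and 0.0655 for modSP, both without library 2.

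Secreted growth and signaling proteins and membrane proteins known from neurons also appeared among the higher DEGs. The chitinase-like growth factor genes Idgf1 (Log2FC 1.40, adjusted p = 0.0437) and Idgf3 (Log2FC 0.92, adjusted p = 0.0106) rose, and T1 was split. Idgf1 had 240.2, 226 and 231 in Q79K-W80R libraries and 794, 337 and 46.6 in T1 libraries, and Idgf3 had 1246, 1068 and 963 in Q79K-W80R libraries and 2283, 1356 and 389.9 in T1 libraries, with T1 library 3 below all T5 libraries in both. magu, a secreted modulator of BMP signaling, had 2477, 2415 and 2345 in Q79K-W80R, against 1742, 1582 and 1496 in T5 (Log2FC 0.59, adjusted p = 0.00933), the 1 member of the activin and BMP list that passed, of 23 tested (4.57% of all genes passed). The dopamine transporter gene DAT had 88.4, 82.7 and 93.7 in Q79K-W80R, against 45.5, 32.7 and 30.6 in T5 (Log2FC 1.28, adjusted p = 0.0206), and dpr8, a neuronal immunoglobulin-domain receptor, had 111, 108 and 92.7 in Q79K-W80R, against 22.7, 30.7 and 15 in T5 (Log2FC 2.19, adjusted p = 0.0116). These were 2 of 19 tested genes of neural type, and 0 of that list were lower (2.42% of all genes were higher and 2.15% lower). Irk1, an inwardly rectifying potassium channel, had a Log2FC of 0.85 (adjusted p = 0.0259), and mesh, of smooth septate junctions, one of 1.26 (adjusted p = 0.0291). The odorant-binding protein genes Obp99a (Log2FC 1.2, adjusted p = 0.00951) and Obp44a (Log2FC 1.55, adjusted p = 0.0106) rose. Obp99a had 1087, 942 and 930.2 in Q79K-W80R libraries and 1171, 1479 and 303 in T1 libraries, and Obp44a had 255, 227 and 187 in Q79K-W80R libraries and 382, 319 and 48.9 in T1 libraries, with T1 library 3 again below all T5 libraries. Obp99a is also made in the fat body, and of 5 tested genes on the fat body list it was the 1 that passed (4.57% of all genes did). Summed, the 14 listed genes had 1616 to 1841 in Q79K-W80R, 1049 to 1427 in T5 and 1282 to 2359.5 in T1, Obp99b averaged 88.8 in Q79K-W80R and 32.0 in T5, and the part of fat body RNA in the result was not tested.

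Several transcription factors and patterning genes of the follicle epithelium were lower in Q79K-W80R. CrebA, a bZIP factor that drives genes of the secretory pathway, had 2886, 3012 and 2828 in Q79K-W80R libraries, against 5108, 5580.3 and 5212 in T5 libraries (Log2FC -0.86, standard error 0.053, adjusted p = 0.00231), and its adjusted p was 0.00137 to 0.0196 with 1 library left out. The T15, WT and LP means of 6119, 6388 and 5183 were near or above that of T5, and the T1 libraries ranged from 2368 to 6991. Pipe (pip), a sulfotransferase of ventral follicle cells that sets the dorsoventral axis of the embryo, had 454, 458 and 454 in Q79K-W80R libraries, against 719.5, 817 and 777 in T5 libraries (Log2FC -0.76, standard error 0.067, adjusted p = 0.00392), below all 15 other libraries. Mirror (mirr), an Iroquois factor of dorsal anterior follicle cells, had 1260.1, 1409.6 and 1271 in Q79K-W80R, against 2066, 2336 and 1821 in T5 (Log2FC -0.65, adjusted p = 0.0232). tj itself, whose promoter region drives the transgenes through GAL4, had 9475, 8871 and 8521 in Q79K-W80R libraries, against 11933, 14047 and 11526 in T5 libraries and was lower by less than the limit for a DEG (Log2FC -0.48, adjusted p = 0.0345). The ETS factor pnt, an effector of EGFR signaling (Log2FC -0.45, adjusted p = 0.0387), and fzr, which brings on the endocycle after Notch signaling (Log2FC -0.40, adjusted p = 0.0422), were lower to a like extent. The T-box gene H15 had 74.8, 79.3 and 64.6 in Q79K-W80R, against 146, 318 and 180.5 in T5 (Log2FC -1.47, adjusted p = 0.041), and its paralog mid a Log2FC of -0.53 (adjusted p = 0.0492). Of 21 tested genes of ovarian somatic identity, 3 were lower and 0 higher, against 2.15% and 2.42% of all genes, and the median was -0.11. The early follicle cell marker Fas3 (Log2FC 0.35, adjusted p = 0.255) and eya (Log2FC 0.058, adjusted p = 0.824) did not pass. Without Q79K-W80R library 1, 2 or 3 the adjusted p of mirr was 0.115, 0.0863 and 0.111, and that of tj 0.116, 0.160 and 0.157.

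Genes that make ecdysone, the steroid hormone of the follicle cells, were lower in part. Spook (spo), which acts early in the pathway, had 1658, 1675 and 1701 in Q79K-W80R libraries, against 2846, 2977 and 2646 in T5 libraries (Log2FC -0.75, standard error 0.056, adjusted p = 0.00241), with an adjusted p of 0.002 to 0.0305 with 1 library left out. Shadow (sad), which adds a hydroxyl group late in synthesis, had 1679, 1612 and 1655 in Q79K-W80R, against 2320.4, 2473 and 2120.0 in T5 (Log2FC -0.48, adjusted p = 0.0158), and shade (shd), which makes the active 20-hydroxyecdysone, had 245, 228 and 251 in Q79K-W80R, against 342, 333 and 342 in T5 (Log2FC -0.49, adjusted p = 0.0233). The other listed steps did not pass: sro had a Log2FC of -0.42 (adjusted p = 0.181) and dib one of 0.039 (adjusted p = 0.901). In all, 3 of 12 genes of ecdysone synthesis, turnover and transport were lower and 0 higher (2.15% and 2.42% of all genes), but 7 of the 12 values were positive, with a median of 0.06. Of 20 genes of the ecdysone receptor and response, 2 were lower and 0 higher, against 2.15% and 2.42% of all genes, with a median of -0.068. These were the nuclear receptors Hr3, with 1176, 1271 and 1486 in Q79K-W80R, against 2110.4, 2474 and 2134 in T5 (Log2FC -0.78, adjusted p = 0.0152), and Hr39, with 885, 916 and 940.0 in Q79K-W80R, against 1246, 1359 and 1273 in T5 (Log2FC -0.50, adjusted p = 0.00951). Hr39 is also on the marker list of oviduct and spermatheca, given below. The receptor gene EcR had a Log2FC of -0.13 (adjusted p = 0.19), and Eip74EF and br had -0.50 and -0.49 (adjusted p = 0.0599 and 0.0544). Eip75B and Sox14 had 0.082 and 0.073. T15 averaged more than T5 in spo (4146), sad (2731) and Hr3 (3251). Of the 5 called genes, spo alone passed in every fit with 1 library left out. The largest adjusted p was 0.107 for sad, 0.127 for shd, 0.0980 for Hr3 and 0.0717 for Hr39, each without a Q79K-W80R library.

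Cad99C, a cadherin of the microvilli through which follicle cells lay down the vitelline membrane, had 11207, 11254 and 10815 in Q79K-W80R libraries, against 16282, 17881 and 15933 in T5 libraries (Log2FC -0.59, standard error 0.059, adjusted p = 0.00603). The abundant genes CG31869 (counts of 10127, 11016 and 10802 in Q79K-W80R, against 16349, 19284 and 16165 in T5, adjusted p = 0.0106) and CG13992 (counts of 9833, 10352 and 9706 in Q79K-W80R, against 14466, 16159 and 14522 in T5, adjusted p = 0.00722) were DEGs as well. T1 was split: its libraries had 8706, 9055 and 19689 for Cad99C, 7104, 8289 and 27477 for CG31869, and 7095, 9745 and 19437 for CG13992. T1 library 3 lay above all T5 libraries in each, and T1 libraries 1 and 2 lay near or below Q79K-W80R. Of the yolk protein genes, Yp3 was lower (Log2FC -0.47, adjusted p = 0.0456), while Yp1 and Yp2 had Log2FC of -0.30 and -0.37 with adjusted p of 0.226 and 0.139. Of 13 vitelline membrane genes, 0 passed the adjusted test (limma), 8 were lower at an unadjusted p under 0.05, where 12.5% of all genes were, and their median Log2FC was -0.62. Vm26Ab, the most strongly lower, had 211861, 214821 and 179314 in Q79K-W80R libraries, against 285332, 456515 and 372479 in T5 libraries (Log2FC -0.86, adjusted p = 0.0566). Together, the 13 genes made up 3.22% to 3.71% of a Q79K-W80R library, against 4.74% to 6.93% of a T5 library. In WT and T15 they made up 5.77% to 9.31% and 7.08% to 8.49%. In LP and T1 they made up 3.52% to 5.49% and 1.90% to 7.63%, ranges that overlap that of Q79K-W80R. The chorion genes, which are made last, had a median of -0.52 over 12 genes. Of these, 0 passed the adjusted test (limma) and 1 was lower at an unadjusted p under 0.05, where 12.5% of all genes were. Here T5 library 2 stood apart: Cp36 had 15239, 15178 and 13824 in Q79K-W80R libraries, against 12647, 49422 and 15184 in T5 libraries. Without that library, the chorion median was 0.043 and that of the vitelline membrane genes -0.39. In RNA of whole cell preparations, fewer follicle cells of a stage and less RNA per cell cannot be told apart.

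Of 24 tested genes of the endoplasmic reticulum and its coats, 2 were lower and 0 higher at an adjusted p under 0.05 (2.15% and 2.42% of all genes), 13 were lower and 0 higher at an unadjusted p under 0.05, against 12.5% and 12% of all genes, and the median Log2FC was -0.23. Sec24CD, of the COPII coat, had 6946, 6933 and 6951 in Q79K-W80R, against 8324, 9119 and 8555 in T5 (Log2FC -0.32, adjusted p = 0.0245), and sip3, a ubiquitin ligase of the reticulum, had 2037, 1954 and 1894 in Q79K-W80R, against 2438, 2693 and 2494 in T5 (Log2FC -0.37, adjusted p = 0.0237). Sec61alpha, of the channel through which secreted proteins enter, had 30316, 30993 and 29726 in Q79K-W80R, against 38125, 49208 and 40381 in T5 (Log2FC -0.48, adjusted p = 0.0501) and missed the threshold. The stress sensor gene Ire1, its target Xbp1 and the chaperone gene Hsc70-3 (BiP) had Log2FC of 0.022, 0.07 and -0.19, none past the test. Outside the list, Sec16, Sec31 and alphaCOP, of vesicle coats, were lower, with Log2FC of -0.29, -0.26 and -0.22 (adjusted p = 0.0261, 0.0449 and 0.0377). They were chosen after their values had been seen. Without any 1 Q79K-W80R library neither Sec24CD nor sip3 passed (at most 0.136 and 0.127). Among enzymes of fatty acid synthesis, 2 of 28 were lower and 0 higher (2.15% and 2.42% of all genes), both of them elongases of very long chain fatty acids: CG5326, with 6208, 5998 and 5977 in Q79K-W80R, against 10419, 11384 and 9484 in T5 (Log2FC -0.78, adjusted p = 0.00471), and bond, with 6749.9, 6760.1 and 6559 in Q79K-W80R, against 9443, 11221 and 9197 in T5 (Log2FC -0.57, adjusted p = 0.0182). CG5326 passed with any 1 library left out (0.00228 to 0.046), whereas bond reached 0.106. FASN1 and ACC, which make the precursor chains, had Log2FC of 0.51 and -0.11 (adjusted p = 0.254 and 0.233).

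**Figure D4:**
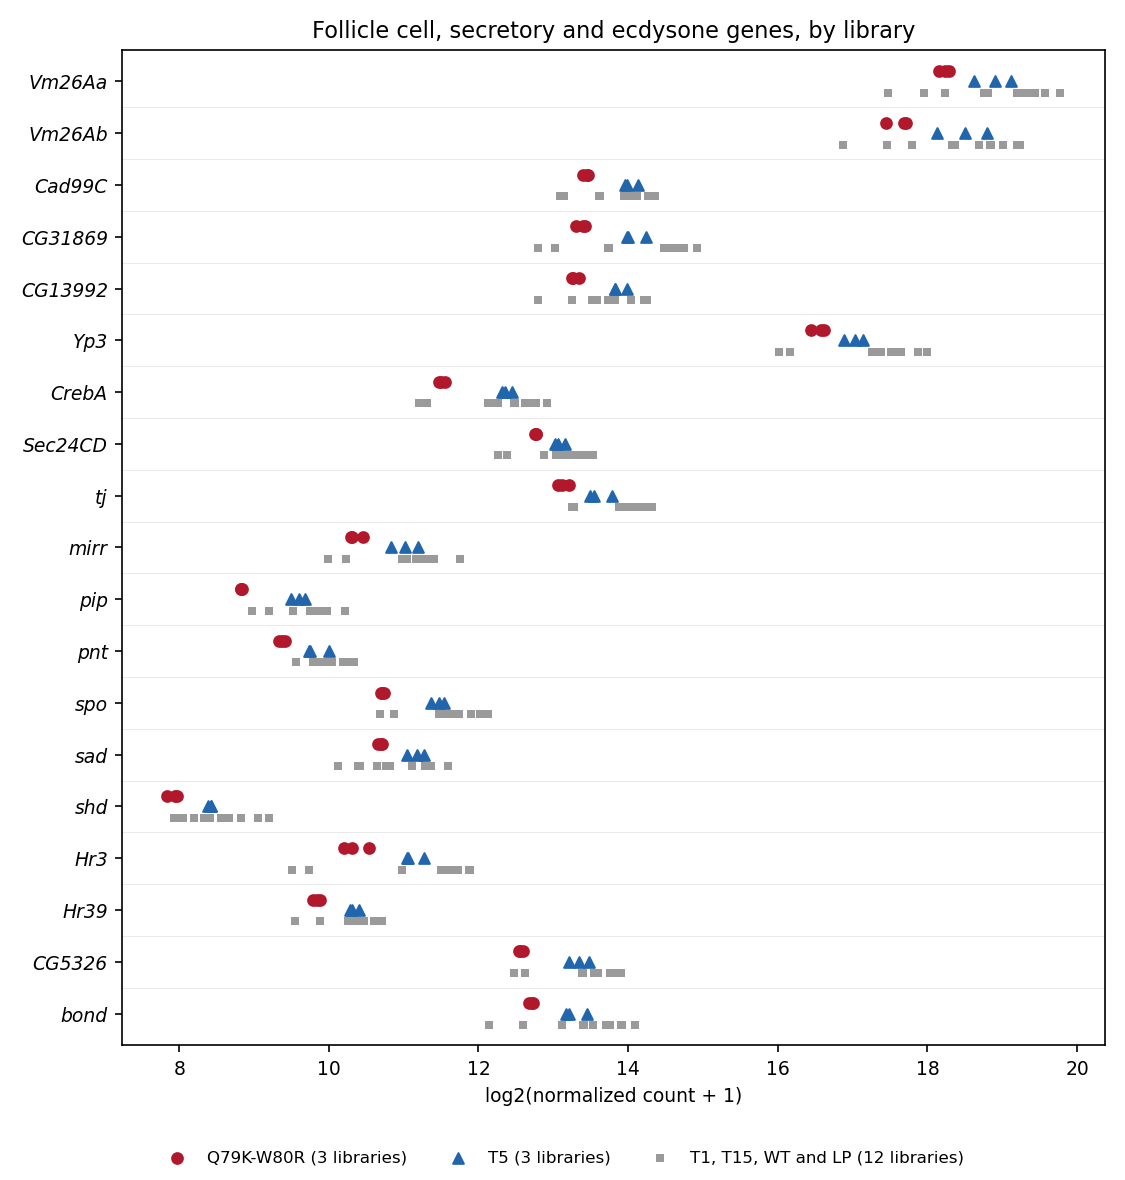
Log2(normalized count + 1) of 19 follicle cell, secretory, ecdysone and elongase genes in each library, with Q79K-W80R as red circles, T5 as blue triangles and the 12 other libraries as grey squares. The genes drawn are ones that were lower in Q79K-W80R without overlap, so the red circles lie left of the blue triangles in every row. The grey squares lie mostly on both sides of them. Members of the same lists that were not lower, among them eya, Fas3, dib and Eip75B, are not drawn.

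The deepest falls were those of digestive enzymes of the midgut. Of 34 genes on the midgut list 13 were tested, and of these 10 were lower and 0 higher at an adjusted p under 0.05. All 10 were DEGs, and the shares of all genes were 2.15% and 2.42%. Genes at or near 0 in all Q79K-W80R libraries, on the list or outside it, met the filter only through the T5 libraries. Such genes could only come out lower, so the shares of all genes are no measure for them. Amylase proximal (Amy-p) had 0, 0 and 0 in Q79K-W80R libraries, against 283, 197 and 206 in T5 libraries (adjusted p = 0.000199), and the serine protease gene Jon99Ciii had 0, 0 and 0 in Q79K-W80R libraries, against 999, 182 and 148 in T5 libraries (adjusted p = 0.00363). Jon25Biii had 0, 0.788 and 0 in Q79K-W80R, against 422, 388 and 124 in T5, Jon99Cii 0, 0 and 0 in Q79K-W80R, against 476, 125 and 111 in T5, and Jon65Aiv 0, 0 and 0 in Q79K-W80R, against 81.7, 15.8 and 116 in T5. Jon65Aiii, Amy-d and the maltase gene Mal-A1 averaged 0.263, 0.832 and 2.74 in Q79K-W80R and 54.1, 77.3 and 50.1 in T5. Genes of the Jon and amylase clusters are near-copies among which reads may have been divided. Genes outside the list followed the pattern, among them the alpha-mannosidase genes LManVI and LManV (means of 0.263 and 0.263 in Q79K-W80R, 265 and 116 in T5), the protease gene yip7 (0.263 and 139.6), CG12057 (0 and 135), CG10911 (0 and 84.3) and CG31343 (0.812 and 84.7).

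These genes also differed between libraries of the same line. Summed over the 34 genes of the midgut list, Q79K-W80R libraries had 36.3 to 40.2, T5 libraries 1255 to 2899, and LP libraries 4677 to 10928. WT ranged from 36.4 to 19552 and T1 from 35.0 to 7269.8 within 3 libraries each, so libraries of the same line differed by more than Q79K-W80R and T5 did. In T15 the sum was 9.21 to 214. In the fit with the spread of all 18 libraries, Amy-p had an adjusted p of 0.115 and Jon99Ciii one of 0.234. The part of midgut tissue in the dissections was not tested.

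Muscle genes had mostly negative values. Of 20 tested genes of the muscle list, 2 were lower and 0 higher at an adjusted p under 0.05 (2.15% and 2.42% of all genes), 14 were lower at an unadjusted p under 0.05, against 12.5% of all genes, and the median Log2FC was -0.79. Myosin alkali light chain 1 (Mlc1) had 56.6, 54.4 and 60.2 in Q79K-W80R, against 109, 151 and 129.7 in T5 (Log2FC -1.16, adjusted p = 0.0147), troponin I (wupA) 107, 105 and 121 in Q79K-W80R, against 181, 272 and 209.9 in T5 (Log2FC -0.97, adjusted p = 0.029), and the myosin heavy chain gene Mhc 375, 340.1 and 351 in Q79K-W80R, against 523, 896 and 546 in T5 (Log2FC -0.84, adjusted p = 0.0677). The summed level of the 24 genes was 21312 to 21694 in Q79K-W80R, against 22939 to 26607 in T5. Most of that sum came from Tm1 (means of 15524 in Q79K-W80R and 16140.0 in T5), which is also used outside muscle. Of the 32 germline genes tested, 0 passed (limma), 4 were higher and 3 lower at an unadjusted p under 0.05 (12% and 12.5% of all genes), with a median of 0.15, and oskar (osk), which is made in the germ line, had 8882, 10203 and 11816 in Q79K-W80R libraries, against 9237, 5692 and 12542 in T5 libraries. Their sum was 71493 to 81174 in Q79K-W80R, against 56829 to 85021 in T5. Germline RNA was therefore present in both groups, in summed amounts that overlapped. Of the 32 values 28 were positive, as were 52.0% of all genes. The median was 0.41 without T5 library 3, with 3 genes higher at an adjusted p under 0.05, and -0.019 without T5 library 2, with 0. Of 11 hemocyte and 6 neural markers tested, 0 passed (limma). At an unadjusted p under 0.05, 1 hemocyte marker was lower and 1 neural marker higher (12.5% and 12% of all genes). The hemocyte marker Hml averaged 66.6 in Q79K-W80R and 58.0 in T5. Of 3 tested oviduct and spermatheca genes, 1 (Hr39) was lower and 0 higher at an adjusted p under 0.05 (2.15% and 2.42% of all genes), and all 3 were negative. The 11 listed genes summed to 909 to 963 in Q79K-W80R, 1276 to 1382 in T5, 956 to 1362 in LP and 766 to 1583 in T1. The part of oviduct tissue in the dissections was not tested.

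**Figure D5:**
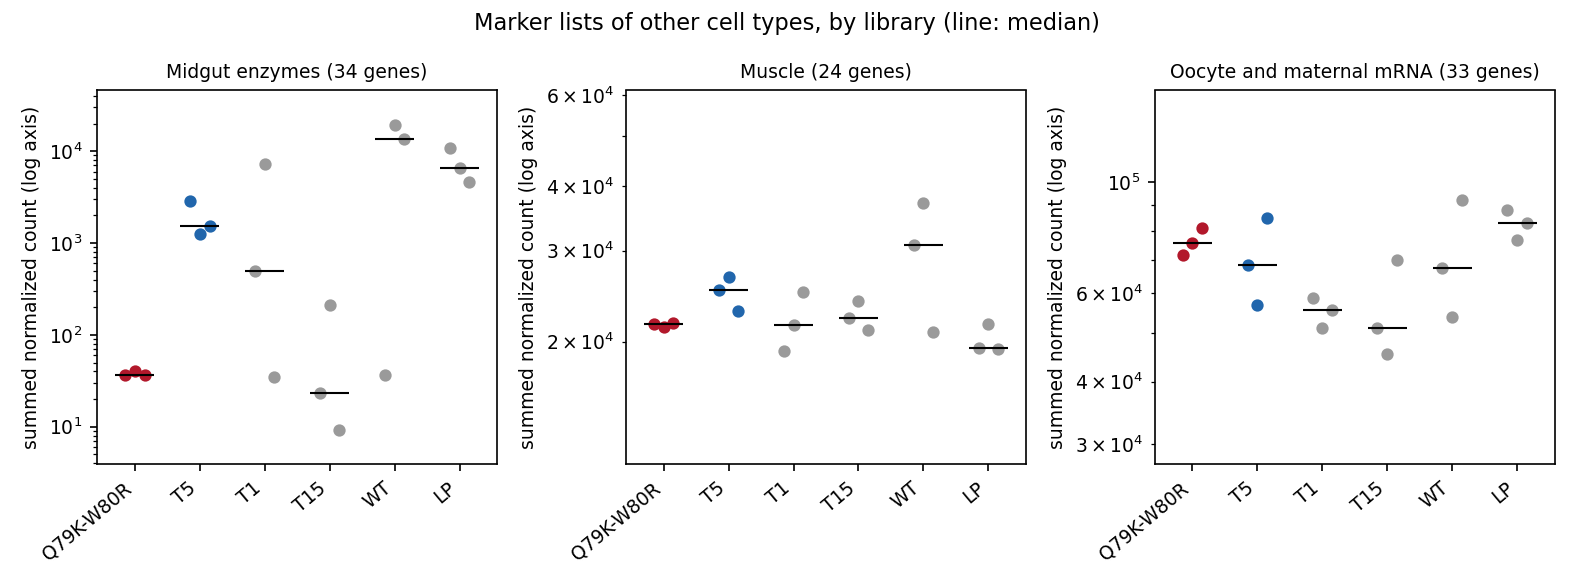
Summed normalized count (log axis) of the midgut, muscle and germline marker lists in each of the 18 libraries, with a line at the median of each group. Midgut sums lie at 36 to 40 in Q79K-W80R, above 1000 in all T5 libraries, and spread over more than 100-fold within WT and within T1, while muscle and germline sums stay within the same order of magnitude.

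A small set of genes was high in T5 and low in the 5 other groups. Alh, a chromatin protein with PHD fingers, had 1815, 1874 and 1770.2 in Q79K-W80R libraries, against 9427, 4603 and 9503 in T5 libraries (Log2FC -2.03, standard error 0.27, adjusted p = 0.015), while T1, T15, WT and LP averaged 2563, 2369, 2427 and 2261. Q79K-W80R was also the lowest line for this gene. IntS12, of the Integrator complex, had 159.7, 169 and 134 in Q79K-W80R, against 431, 299 and 435 in T5 (Log2FC -1.31, adjusted p = 0.0148), and Lerp, the lysosomal enzyme receptor, had 763, 772 and 734 in Q79K-W80R, against 2212, 1165 and 1776 in T5 (Log2FC -1.13, adjusted p = 0.0404). These 2 genes follow one another among the tested genes of 3R. Ir68a, an ionotropic receptor of humidity-sensing neurons, had 48.1, 48.1 and 66.9 in Q79K-W80R libraries, against 443, 297 and 1218 in T5 libraries (Log2FC -3.32, adjusted p = 0.0215), and the next tested genes on 3L, lncRNA:CR44718, lncRNA:CR44715 and lncRNA:CR44717, were lower too (adjusted p = 0.0232, 0.0237 and 0.0106). lncRNA:CR44717 had 0.789, 5.52 and 1.72 in Q79K-W80R, against 104, 87.2 and 319 in T5. The 4 may share reads, and T5 library 3 had the highest value of each. CG33986 and its neighbor CG33985 had 0, 0 and 0 in Q79K-W80R, against 46.6, 26.7 and 37.3 in T5, and 2.35, 2.36 and 1.69 in Q79K-W80R, against 29.0, 18.8 and 20.7 in T5, with no line other than T5 above a mean of 2.16. The 10th gene in which T5 stood outside all other libraries was Cht7, a chitinase gene (Log2FC -1.21, adjusted p = 0.0206). Without any 1 of the Q79K-W80R libraries Alh, IntS12, Lerp, Ir68a and Cht7 were not past the test, with a largest adjusted p of 0.172 (Lerp), but in the fit of all 18 libraries the adjusted p was 0.0001 for Alh, 0.000514 for IntS12, 0.0128 for Lerp and 0.000514 for Ir68a.

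The reverse case, low in Q79K-W80R alone, was clearest in Lgr4, a leucine-rich repeat receptor coupled to G proteins. Its counts were 0.792, 0 and 0 in Q79K-W80R libraries, against 88.8, 54.7 and 91.5 in T5 libraries (adjusted p = 0.00232), and the 12 other libraries averaged 44.2 in WT to 93.8 in LP. CG32641, also on the X chromosome, had 456, 431 and 459 in Q79K-W80R, against 896, 1013 and 768 in T5 (Log2FC -0.98, adjusted p = 0.00777), also below all 15 other libraries. unc-13 (Log2FC -0.59, adjusted p = 0.00363), TM4SF (Log2FC -1.28, adjusted p = 0.00915) and CG33306 (Log2FC -2.39, adjusted p = 0.0286) were the remaining genes of this kind next to pip, H15 and Alh. Over the 8950 pairs of tested genes that follow one another on a chromosome, 34 pairs were DEGs of the same direction and 2 of opposite direction, so that 58 of the 234 DEGs found in the RefSeq annotation had such a partner. Many pairs are tandem copies such as the Gst, Jon, amylase and LMan genes. CG42362 and CG42363 had identical values in every library, as had CG10570 and CG42502, so each pair counts as 1 signal.

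Of 28 genes from the insulin receptor to Akt, 0 passed the adjusted test (limma), 3 were higher and 3 lower at an unadjusted p under 0.05 (12% and 12.5% of all genes), and the median Log2FC was 0.023. The fly Akt gene had 2690.5, 2764 and 2704 in Q79K-W80R libraries, against 2939, 2876 and 3097 in T5 libraries (Log2FC -0.13, adjusted p = 0.164), the insulin receptor gene InR had 977, 973 and 1047 in Q79K-W80R libraries, against 947, 962 and 1030.0 in T5 libraries (Log2FC 0.029, adjusted p = 0.798), and chico and foxo had Log2FC of 0.035 and 0.14. Of 12 tested FOXO targets 0 passed (limma), with 1 higher and 1 lower at an unadjusted p under 0.05 (12% and 12.5% of all genes). Their median Log2FC was 0.31, with 9 of the 12 positive, as were 52.0% of all genes. That median lay between -0.0083 and 0.55 in the fits with 1 library left out. Thor (4E-BP), which FOXO switches on, had 9232, 9929 and 8848 in Q79K-W80R libraries, against 9888, 4462 and 5994 in T5 libraries (Log2FC 0.54, adjusted p = 0.264). In the TOR list 1 gene of 27 was higher (2.42% of all genes were), REPTOR-BP, a partner of the factor REPTOR that acts when TOR is low (Log2FC 0.36, adjusted p = 0.0489). The TOR inhibitors charybde (chrb) and scylla (scyl) had 7599, 7963 and 8675 in Q79K-W80R, against 5740.2, 2761 and 4831 in T5 (Log2FC 0.93, adjusted p = 0.0856), and 14348, 14941 and 15005 in Q79K-W80R, against 13631, 6051 and 10212 in T5 (Log2FC 0.64, adjusted p = 0.203), without overlap of the groups but not past the adjusted test. None of 25 DNA replication, 28 mitosis, 17 cell death, 22 JNK or 20 Hippo genes passed (limma). At an unadjusted p under 0.05, 1 gene was higher and 1 lower on each of the replication and mitosis lists. On the cell death list 4 were higher and 0 lower, on the JNK list 7 higher and 1 lower, and on the Hippo list 0 higher and 4 lower, against 12% and 12.5% of all genes. Cytoplasmic ribosomal protein genes had 0 of 84 past the adjusted test, but 23 were higher and 0 lower at an unadjusted p under 0.05 (12% and 12.5% of all genes), with a median of 0.10. The paper assayed genes by RT-qPCR in T5 and Q79K-W80R against WT, and describes no such assay of Q79K-W80R against T5. Among those genes were Pak3, cib, Map205 and Mhc (given above with muscle). None passed the test: Pak3 had 4023, 4138 and 4449 in Q79K-W80R libraries, against 4321, 2551 and 3964 in T5 libraries (Log2FC 0.25, adjusted p = 0.447), cib 32888, 31986 and 29976 in Q79K-W80R, against 34089.6, 16211 and 25018 in T5 (Log2FC 0.40, adjusted p = 0.368), and Map205 5379.6, 5351 and 5380.4 in Q79K-W80R, against 5068, 4022 and 4829.5 in T5 (Log2FC 0.22, adjusted p = 0.189), with overlap between the groups for Pak3 and cib. T5 library 2 had the lowest value of the 6 libraries in Pak3, cib, Map205 and Thor.

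Other lists held few calls. Among 34 heat shock proteins and chaperones 0 passed (limma), while 10 were higher and 3 lower at an unadjusted p under 0.05, against 12% and 12.5% of all genes. Hsp26 had 31976, 35107 and 38869 in Q79K-W80R, against 26627, 20023 and 16450.2 in T5 (Log2FC 0.77, adjusted p = 0.0601), and Hsp70Bc, a member of a family of near-copies, had 15628, 16519 and 17194 in Q79K-W80R, against 10439, 7170.5 and 4279 in T5 (Log2FC 1.26, adjusted p = 0.0628). Of 44 autophagy and lysosome genes, 2 were higher and 1 (Lerp) lower, against 2.42% and 2.15% of all genes, with 38 positive values and a median of 0.11. Outside that list, Npc2b, a sterol-binding protein of the Niemann-Pick type (Log2FC 1.91, adjusted p = 0.0211), and Sgsh, a lysosomal sulfatase (Log2FC 1.07, adjusted p = 0.0287), rose. Of 54 actin regulators 2 were higher, the actin nucleator gene capu (Log2FC 0.55, adjusted p = 0.014) and Arpc4, of the Arp2/3 complex (Log2FC 0.31, adjusted p = 0.028), and 0 lower, against 2.42% and 2.15% of all genes. Of 19 basement membrane and matrix genes 0 passed (limma), 3 were lower and 0 higher at an unadjusted p under 0.05 (12.5% and 12% of all genes), 16 values were negative, and the median was -0.23. Of 19 genes of the tricarboxylic acid cycle 0 passed (limma), with 8 lower and 1 higher at an unadjusted p under 0.05, against 12.5% and 12% of all genes.

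Further DEGs of known role were picked after their values had been seen. CG9674, a predicted glutamate synthase, had 6925, 6354 and 6199 in Q79K-W80R libraries, against 4111, 2539 and 3039 in T5 libraries (Log2FC 1.03, adjusted p = 0.0261), and 6531, 4838 and 2676 in T1 libraries. The serpin gene Spn88Ea had 2365, 2050.4 and 2125 in Q79K-W80R, against 1456, 1032 and 1035 in T5 (Log2FC 0.91, adjusted p = 0.0253), and 3652, 2850.2 and 668 in T1 libraries. The tetraspanin gene Tsp29Fb had 321, 289 and 257 in Q79K-W80R, against 161, 104 and 100.3 in T5 (Log2FC 1.27, adjusted p = 0.0253), and 406, 541 and 54.4 in T1 libraries. Tspo, which encodes the mitochondrial translocator protein, had 2574, 2537 and 2781 in Q79K-W80R, against 1732, 1465 and 1801 in T5 (Log2FC 0.66, adjusted p = 0.0147), and 2722, 3735 and 1164 in T1 libraries. In these last 3 genes T1 libraries 1 and 2 were above all T5 libraries and T1 library 3 below them. Diacylglycerol kinase (Dgk) had 207, 238 and 208 in Q79K-W80R, against 112, 65.0 and 58.3 in T5 (Log2FC 1.52, adjusted p = 0.0261), with no more than 86.4 as the mean of any other group. Hesr, a basic helix-loop-helix repressor, averaged 188 in Q79K-W80R and 66.6 in T5 (Log2FC 1.58, adjusted p = 0.0432), and rst (roughest), an immunoglobulin-domain adhesion protein, 136 in Q79K-W80R and 67.9 in T5 (Log2FC 1.03, adjusted p = 0.0489). Among the lower DEGs, the cadherin gene Cad88C had 581, 552 and 596 in Q79K-W80R, against 893, 1639.6 and 1100.4 in T5 (Log2FC -1.02, adjusted p = 0.0449), and the tachykinin receptor gene TkR99D had 1.58, 0 and 0 in Q79K-W80R, against 26.2, 12.9 and 82.7 in T5 (adjusted p = 0.0286). CG32365 (Log2FC -0.72, adjusted p = 0.00407), CG46321 (Log2FC -1.12, adjusted p = 0.00588) and, among the rises, CG44325 (Log2FC 0.88, adjusted p = 0.00407) passed with any 1 library left out, whereas the other genes of this paragraph did not, Spn88Ea reaching 0.116 and rst 0.192.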

How the data were processed

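RNA-Seq libraries of follicle cells were used from the Q79K-W80R and T5 lines, 3 of each, with the other 12 of the 18 libraries for context. Per the labels and the paper's methods, the authors digested ovaries with trypsin and collagenase, passed the cells through a mesh without a stated sort, and made stranded mRNA libraries. The submitters' processing notes name bcl2fastq 2.18.0.12, Bowtie and RSEM 1.3.1. The deposited signal values are RSEM counts of each gene, which the authors scaled over all 18 libraries with DESeq2. They are not whole reads, so no count test was run. The genome build is not given in the sources used here, hence no coordinates. Symbols were found for 17372 of 17493 genes. The third Q79K-W80R column was assigned by its shared name. Nothing says more than separate crosses, and p measures the spread between these libraries.

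Log2(value + 1) was compared with limma 3.58.1 in R 4.3.3 (trend). The added 1 understates folds of low genes. Gene lists, members and tests were chosen with earlier results of these data known, and the ecdysteroid kinase-like list after its values were seen. Genes were named by rule: among DEGs averaging at least 50 in the higher group, the 15 largest rises and falls and the 10 smallest adjusted p each way, up to 6 DEGs and known members per list, the RT-qPCR genes, Akt and tj, and the highest markers. Others were named after their values were seen: the genes apart from all other lines, neighbors, and single DEGs with a known role. Alternatives are given below. The test was tried on simulated data. Figures were drawn with matplotlib 3.10.9.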

Additional observations from a re-analysis of the deposited data

How the results depend on the processing

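With 3 libraries a group and unequal spread between the lines, the count of DEGs depended on the setting. The 236 DEGs and 413 genes at an adjusted p under 0.05 stayed within 1.5 times of these counts with a pseudocount of 0.5 or 5, no filter, TMM or median-of-ratios factors, quantile normalization, or equal totals without mitochondrial and ribosomal RNA genes (209 to 248 DEGs and 360 to 433 genes). A minimum mean of 50 gave 166 DEGs from 7713 genes and 345 genes at an adjusted p under 0.05. Array weights, which count noisier libraries less, gave 413 and 883, and no trend 188 and 233. The fit of the 12 mutant libraries gave 52 and 56, and that of all 18 libraries 64 and 68. With 1 library left out the counts were 41 to 395 DEGs and 42 to 680 genes. The cause of these shifts was not tested. Same-numbered libraries deviated together with correlations of 0.16, -0.023 and 0.026, so the numbers do not pair the libraries, and a replicate block gave 175 DEGs and 226 genes. Of the 145 genes named in the text that passed, 37 to 139 did so with 1 library left out. The fit of all 18 libraries kept 47 of them, the block 105 and the fit without the trend 101. No change of sign was possible in these fits. Leaving out 1 library cannot reverse groups that do not overlap, and the other fits named here keep the same Log2FC.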
